A study of Mus musculus with 8 samples.

Results

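The epidermal growth factor (EGF) family ligands and their ERBB receptors were followed in spheroids of a pair of mouse mammary lines, without and with PM2.5. The genes were chosen by symbol from a list of 10: the ligand genes Areg, Ereg, Hbegf, Tgfa, Btc and Nrg1, and the receptor genes Egfr, Erbb2, Erbb3 and Erbb4. Of these, 9 symbols matched a row among the 25413 genes of the count table, and Nrg1 was not analysed here. After the filter on low counts 7 of the 9 were tested. Tgfa and Erbb4 did not pass and are given by their counts. Btc and Erbb3 passed only through their EpH4 libraries, so that a high level in EpH4 was a condition of their being tested, and the number of tested genes that were lower in EpH4-AS is given below as a description.

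EGF family ligands are made as membrane-anchored precursors and are released by proteases of the ADAM family. A ligand that binds EGFR, ERBB3 or ERBB4 lets the receptor pair with itself or with another ERBB protein, and ERBB2, which binds no known ligand, acts as a shared partner. The active pair signals through adaptors to RAS, MAPK and PI3K. In the mammary gland amphiregulin, the product of Areg, is a known relay of oestrogen signalling during growth of the ducts, and ERBB2 is amplified in a class of human breast cancers.

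EpH4 is labelled as wildtype (genotype WT) and EpH4-AS as AS-transformed, and the study's design calls EpH4-AS malignantly transformed. Both are described in the labels as mammary gland epithelial cells, and both were grown as spheroids, rounded aggregates in 3D culture. Spheroids were untreated (Control) or received PM2.5, the fine fraction of particles in air, and the latter are called exposed below. Neither dose nor duration is given in the sources used here. Each of the 4 groups, untreated and exposed EpH4 and untreated and exposed EpH4-AS, held 2 libraries of polyadenylated RNA, and all 8 carry the same batch label. Each genotype is represented by 1 line, so that an effect of the genotype and other differences between the lines cannot be told apart. Whether both libraries of a group derive from separate cultures is not stated in the labels. The p-values then measure only the spread between libraries, which may be technical.

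Total counts ran from 15393256 to 27765982 per library and were higher in all 4 EpH4 libraries than in the 4 EpH4-AS libraries. Reads outside exons made up 11.3 to 12.5% of gene reads in EpH4 and 3.39 to 3.59% in EpH4-AS, and mitochondrially encoded transcripts took 2.21 to 5.03% and 0.219 to 0.302% of counts. The labelled epithelial identity was checked against 10 luminal epithelial markers. None of the 10 reached 1 CPM, where CPM is a count scaled to a common library total, in EpH4, and 1, Krt7, did in EpH4-AS. Their summed level ran from 0.436 to 0.945 CPM in EpH4 and from 1.87 to 2.59 CPM in EpH4-AS. Krt19 and Cldn4 had 0 counts in every library, and Epcam had 0 counts in EpH4. Of 7 basal markers 1 or 2 reached 1 CPM in each group, with sums of 2.57 to 9.78 CPM. Of 8 fibroblast and mesenchymal markers 6 did, with sums of 4041 to 5102 CPM. Immune marker sums were 175 to 225 CPM in EpH4 and 38.8 to 42.2 CPM in EpH4-AS, nearly all from Cd68, while Ptprc, the defining leukocyte gene, had 0 counts in 2 of the 4 groups. The fibroblast sums overlapped between the lines, but of 7 tested members 5 were lower and 2 higher in untreated EpH4-AS. Over all 13716 genes tested 6262 were called lower and 5976 higher. Col1a2 was 31.0-fold, Pdgfra 6.12-fold and Dcn 2.87-fold lower, and Vim was 1.77-fold and Lum 5.41-fold higher. Among the 5 lower is Col1a1, which passed the filter only through EpH4, with 3 counts in untreated and 4 in exposed EpH4-AS. Endothelial sums stayed at or under 0.875 CPM. Adipocyte sums were 0.676 to 1.27 CPM in EpH4, 14.0 to 17.0 CPM in untreated EpH4-AS and 4.83 to 6.07 CPM in exposed EpH4-AS. Depth, both read shares and the epithelial, basal, immune and adipocyte sums did not overlap between the lines, and their part and that of the fibroblast genes in the line differences below was not tested. With PM2.5 the basal sum of EpH4 went from at most 4.91 to at least 9.75 CPM and its mitochondrial share from at most 2.72 to at least 4.23%. The basal rise was that of Krt14, from 3.17 to 8.59 CPM in the group means, while Krt5 had 0 counts and Myh11 and Trp63 were lower. In EpH4-AS the basal sum went from at least 3.67 to at most 2.77 CPM and the mitochondrial share from at most 0.246 to at least 0.270%. The basal sum there was mostly Acta2 (2.27 CPM untreated, 1.26 exposed) and Myh11 (1.17 and 0.847). There the adipocyte gene Fabp4 fell by 1.53 (edgeR adjusted p = 0.000111), Lum by 1.31 (0.00663) and Dcn by 0.53 (0.00181) on the log2 scale, and in EpH4 Pdgfra fell by 0.35 (0.00121) and Cd68 rose by 0.25 (0.0109). The part of these in the PM2.5 effects was not tested.

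The start regions of 4 of the tested genes are shown so that both directions of the line difference described below are represented: Areg, Btc and Egfr were lower in EpH4-AS and Erbb2 was higher. The sequences are from RefSeq on GRCm38.p6, a different build from that of the gene coordinates below, and each covers 250 bases before and 50 bases from the annotated start, 5′ to 3′ on the gene's strand. Start regions were read for 6 of the 10 listed symbols, the 4 shown and Tgfa and Erbb4. That the others have none here does not show that RefSeq lacks an entry for them. Capitals mark matches to the cyclic AMP response element TGACGTCA, the GC box GGGCGG, the AP-1 site TGANTCA, each on either strand, and the TATA box TATAAA on the gene's strand.
Areg, chr5:91139349-91139648, plus strand: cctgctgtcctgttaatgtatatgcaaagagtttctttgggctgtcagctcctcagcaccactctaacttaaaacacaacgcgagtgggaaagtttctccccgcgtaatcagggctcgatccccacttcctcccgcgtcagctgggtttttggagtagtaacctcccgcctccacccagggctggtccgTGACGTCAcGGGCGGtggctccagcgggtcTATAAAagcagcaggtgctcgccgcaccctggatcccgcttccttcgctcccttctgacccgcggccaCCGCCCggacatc
Btc, chr5:91402945-91403244, minus strand: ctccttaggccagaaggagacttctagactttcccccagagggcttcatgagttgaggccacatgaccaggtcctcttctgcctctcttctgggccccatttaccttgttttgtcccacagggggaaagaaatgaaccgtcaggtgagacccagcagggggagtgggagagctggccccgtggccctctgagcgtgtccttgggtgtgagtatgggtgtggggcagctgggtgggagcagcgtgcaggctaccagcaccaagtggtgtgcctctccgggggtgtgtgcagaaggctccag
Egfr, chr11:16751953-16752252, plus strand: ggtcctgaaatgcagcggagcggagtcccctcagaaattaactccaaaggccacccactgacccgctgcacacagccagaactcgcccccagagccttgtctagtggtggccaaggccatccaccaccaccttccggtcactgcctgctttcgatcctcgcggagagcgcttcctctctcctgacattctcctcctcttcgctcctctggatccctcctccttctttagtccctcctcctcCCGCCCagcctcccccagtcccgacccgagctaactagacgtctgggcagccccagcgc
Erbb2, chr11:98412234-98412533, plus strand: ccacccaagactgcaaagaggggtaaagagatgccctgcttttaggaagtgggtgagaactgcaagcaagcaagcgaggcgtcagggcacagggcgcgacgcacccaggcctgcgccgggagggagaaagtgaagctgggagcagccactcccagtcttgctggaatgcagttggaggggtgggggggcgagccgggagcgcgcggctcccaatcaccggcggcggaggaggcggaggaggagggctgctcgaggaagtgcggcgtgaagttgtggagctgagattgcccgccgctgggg
In Areg the cyclic AMP response element lay at bases -61 to -54 from the start, a GC box at -52 to -47, the TATA box at -31 to -26, and a further GC box, on the opposite strand, at 38 to 43. Base 1 is the start and base -1 precedes it. Egfr held a GC box, also on the opposite strand, at -9 to -4, and in Btc and Erbb2 these letters did not occur in the window. Among 32851 promoters of the same length 1.79% held the cyclic AMP response element, 35.7% the GC box, 7.81% the AP-1 site and 8.32% the TATA box. GC content was 59.3% in Areg, 60.3% in Btc, 62.3% in Egfr and 66.0% in Erbb2, against a median of 52.7% over all promoters. The count of CpG was 21 in Areg and in Erbb2, 15 in Egfr and 5 in Btc, against a median of 7. A match is a description of the letters and shows no binding.

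Areg was lower in EpH4-AS than in EpH4 and rose with PM2.5 in each line. Areg (ENSMUSG00000029378, chromosome 5, 91287458 to 91296291 on GRCm39, plus strand) encodes amphiregulin, a ligand of EGFR. Its TMM-normalised level, in CPM after scaling by the trimmed mean of M values, was 82.5 and 87.2 CPM in untreated EpH4 and 101 and 105 CPM in exposed EpH4. In EpH4-AS it was 18.7 and 17.6 CPM untreated and 24.7 and 23.8 CPM with PM2.5. No 2 of the 4 groups overlapped, and the exposed EpH4-AS libraries stayed below every EpH4 library. Areg was 4.66-fold lower in untreated EpH4-AS (log2 fold change -2.22 ± 0.07 SE, edgeR quasi-likelihood test adjusted p = 2.05e-13). With PM2.5 in both lines the difference was -2.08 ± 0.06 (adjusted p = 2.15e-13). In bulk RNA, fewer cells that express a gene and less RNA per cell cannot be told apart. PM2.5 raised Areg by 0.28 ± 0.05 on the log2 scale in EpH4 (1.21-fold, adjusted p = 0.00186) and by 0.42 ± 0.08 in EpH4-AS (1.33-fold, adjusted p = 0.00385). The rise in EpH4-AS lost the threshold without untreated EpH4-AS replicate 2 (adjusted p = 0.0676). The interaction, the PM2.5 effect in EpH4-AS less that in EpH4, was 0.14 ± 0.09 (adjusted p = 0.381, 95% interval -0.07 to 0.34).

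Ereg rose with PM2.5 in EpH4-AS, from a level that was far lower than in EpH4. Ereg (ENSMUSG00000029377, chromosome 5, 91222481 to 91241505, plus strand) encodes epiregulin, a ligand of EGFR and ERBB4. It stood at 83.0 and 91.4 CPM in untreated EpH4 and at 92.7 and 104 CPM with PM2.5. In EpH4-AS it stood at 7.77 and 8.03 CPM untreated and at 14.0 and 12.3 CPM with PM2.5. The EpH4 groups lay next to each other without overlap, and all 4 EpH4-AS libraries were below all 4 EpH4 libraries. Ereg was lower in untreated EpH4-AS (log2 fold change -3.46 ± 0.10 SE, edgeR adjusted p = 9.28e-14) and, 7.49-fold, in exposed EpH4-AS (-2.91 ± 0.09, adjusted p = 2.02e-13). The PM2.5 effect was 1.66-fold in EpH4-AS (0.73 ± 0.13, adjusted p = 0.00202) and 1.13-fold in EpH4 (0.18 ± 0.07), where it missed the threshold (adjusted p = 0.0725). In EpH4 it passed without untreated EpH4 replicate 2 (0.0283) or exposed EpH4 replicate 1 (0.0233). The difference between these effects was itself tested and was 0.56 ± 0.14 (adjusted p = 0.0186, 95% interval 0.25 to 0.87), and 14.1% of all genes passed this interaction test. That call was lost with limma-trend on RPKM (adjusted p = 0.0909), without untreated EpH4-AS replicate 1 (0.0964) or 2 (0.0752), and without replicate 1 of exposed EpH4-AS (0.0880).

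Hbegf was lower in EpH4-AS, and its response to PM2.5 did not pass in either line. Hbegf (ENSMUSG00000024486, chromosome 18, 36637980 to 36648858, minus strand) encodes heparin-binding EGF-like growth factor, a ligand of EGFR and ERBB4. Its level was 121 and 154 CPM in untreated EpH4, 127 and 117 CPM in exposed EpH4, 13.8 and 16.4 CPM in untreated EpH4-AS, and 11.6 and 11.3 CPM in exposed EpH4-AS. The EpH4 groups overlapped, the EpH4-AS groups did not, and the lines were apart. Hbegf was 9.12-fold lower in untreated EpH4-AS (-3.19 ± 0.11 SE, edgeR adjusted p = 1.22e-12) and 10.7-fold lower with PM2.5 (-3.42 ± 0.12, adjusted p = 8.47e-13). The PM2.5 effect was -0.17 ± 0.09 in EpH4 (adjusted p = 0.180) and -0.40 ± 0.15 in EpH4-AS (adjusted p = 0.110). In EpH4 it passed without a filter (0.0182) and without untreated EpH4 replicate 1 (0.00101, -0.33), and without untreated EpH4 replicate 2 it was 0.01 (0.954). In EpH4-AS it passed in 5 of 15 alternatives, with adjusted p from 0.00315 to 0.0413. These were DESeq2, no filter, a fit to the groups compared alone, and leaving out either untreated EpH4 library.

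Btc was a rare transcript in EpH4 and close to 0 in EpH4-AS. Btc (ENSMUSG00000082361, chromosome 5, 91505120 to 91550853, minus strand) encodes betacellulin, a ligand of EGFR and ERBB4. It had 76 and 47 counts in untreated EpH4 and 96 and 92 with PM2.5, which is 2.76, 1.87, 3.66 and 3.78 CPM. In EpH4-AS it had 2 and 2 counts untreated and 4 and 1 with PM2.5. All 4 EpH4 libraries lay above all 4 EpH4-AS libraries. The ratio of EpH4 to EpH4-AS was 18.9 (95% exact counting interval 7.21 to 70.6) untreated and 26.4 (11.1 to 82.4) with PM2.5, and these intervals cover counting error only. In EpH4 the rise with PM2.5 was 0.67 ± 0.24 on the log2 scale and passed narrowly (edgeR adjusted p = 0.0472). It missed in 8 of 16 alternatives, among them DESeq2 (adjusted p = 0.322) and the fit to the groups compared alone (0.0653). Leaving out untreated EpH4 replicate 2 gave 0.43 (adjusted p = 0.287), and the call was also lost without either library of exposed EpH4 or either untreated EpH4-AS library, at adjusted p from 0.0664 to 0.178.

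Tgfa, the gene of transforming growth factor alpha, had 0 counts in all 8 libraries. The gene (ENSMUSG00000029999) lies on chromosome 6 from 86172205 to 86252701 on the plus strand. Over a group of 2 libraries, 0 counts allow a level of up to 0.0570 CPM in untreated EpH4, 0.0593 in exposed EpH4, 0.0925 in untreated EpH4-AS and 0.0844 in exposed EpH4-AS (3 counts over the group, counting error only). Over the whole gene, introns included, the authors' tables held from 0 to 4 reads per library, so exonic Tgfa was not detectable at this depth.

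With PM2.5, 2 of the 7 tested genes were called in EpH4 (Areg and Btc, both higher), where 27.2% of all 13716 genes tested were called and 14.3% were called higher. In EpH4-AS 2 of 7 were called (Areg and Ereg, both higher), where 11.1% of all genes were called and 6.39% were called higher. Called here means an adjusted p under 0.05 over all genes tested. Areg was called in each line. The comparisons in the 2 lines use different libraries but the same estimate of each gene's spread, taken over all 8 libraries.

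**Figure D1:**
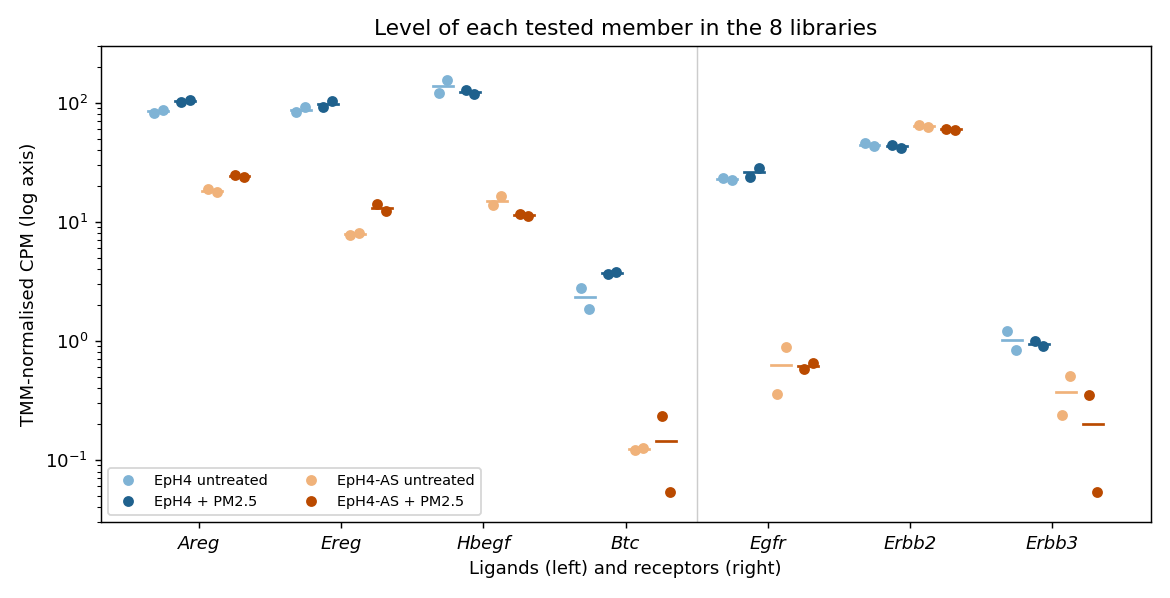
TMM-normalised CPM (log axis) of the 7 tested genes in each of the 8 libraries, ligands left and receptors right. Points are libraries and bars are means of the 2 libraries of a group. Areg, Ereg, Hbegf, Btc and Egfr lie lower in all 4 EpH4-AS libraries than in any EpH4 library, and Erbb2 lies higher.

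Among the receptors, Egfr was much lower in EpH4-AS, with few counts left in any library. Egfr (ENSMUSG00000020122, chromosome 11, 16702203 to 16868158, plus strand) encodes the receptor of EGF, amphiregulin and the other EGFR ligands. It had 643 and 560 counts in untreated EpH4 and 623 and 692 with PM2.5, or 23.4, 22.3, 23.7 and 28.4 CPM. In EpH4-AS it had 6 and 14 counts untreated and 10 and 12 with PM2.5, or 0.361, 0.885, 0.584 and 0.651 CPM. Every EpH4 library stood above every EpH4-AS library. The ratio of EpH4 to EpH4-AS was 37.0 (95% exact counting interval 23.9 to 60.9) untreated and 42.0 (27.6 to 67.3) with PM2.5. The log2 fold change between untreated lines was -5.20 ± 0.22 SE (edgeR adjusted p = 7.18e-12) and ranked 826th from the lowest of 13716. It was -4.69 without untreated EpH4-AS replicate 1 and -5.97 without replicate 2. PM2.5 moved Egfr by 0.19 ± 0.11 in EpH4 (adjusted p = 0.208, 95% interval -0.04 to 0.42). In EpH4-AS the interval ran from -1.02 to 1.02 on the log2 scale around 0.00, at 22 counts or fewer per group, so a change of the size seen for Areg would not have been detectable.

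Erbb2 went the other way between the lines, by a small step. Erbb2 (ENSMUSG00000062312, chromosome 11, 98303296 to 98328542, plus strand) encodes the ligandless partner receptor. Its level was 46.2 and 43.0 CPM in untreated EpH4, 44.3 and 41.7 CPM in exposed EpH4, 64.7 and 62.5 CPM in untreated EpH4-AS, and 60.2 and 59.2 CPM in exposed EpH4-AS. All 4 EpH4-AS libraries were above all 4 EpH4 libraries. Erbb2 was 1.43-fold higher in untreated EpH4-AS (0.51 ± 0.06 SE, edgeR adjusted p = 1.62e-06) and 1.39-fold higher with PM2.5 (0.47 ± 0.06, adjusted p = 4.16e-06). The PM2.5 effect was -0.05 ± 0.06 in EpH4 (adjusted p = 0.572, 95% interval -0.18 to 0.08) and -0.09 ± 0.06 in EpH4-AS (adjusted p = 0.391, -0.23 to 0.04). The Erbb2 gene model overlaps that of Mien1, which had 5019 counts over the 8 libraries, and how the authors' counting treated strand is not given in the sources used here, so reads in the overlap cannot be assigned.

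Erbb3 and Erbb4, whose products bind neuregulins, were at or near the limit of detection. Erbb3 (ENSMUSG00000018166, chromosome 10, 128403392 to 128425521, minus strand) had 33 and 21 counts in untreated EpH4, 26 and 22 in exposed EpH4, 4 and 8 in untreated EpH4-AS, and 6 and 1 in exposed EpH4-AS. The lines did not overlap. The ratio of EpH4 to EpH4-AS was 2.77 (95% exact counting interval 1.46 to 5.69) untreated and 4.82 (2.17 to 12.6) with PM2.5. The untreated difference (-1.45 ± 0.52 SE, edgeR adjusted p = 0.0164) missed the threshold with DESeq2 (0.0729), without untreated EpH4 replicate 1 (0.0935) and without untreated EpH4-AS replicate 1 (0.148). With PM2.5 it was -2.23 ± 0.59 (adjusted p = 0.00257). It was -1.41 (0.0484) without exposed EpH4-AS replicate 2, which had 1 count, and -3.98 (0.00137) without replicate 1. Erbb4 (ENSMUSG00000062209, chromosome 1, 68071345 to 69147218, minus strand) had 0 counts in all 4 EpH4 libraries, 2 and 3 counts in untreated EpH4-AS and 1 and 1 in exposed EpH4-AS. Its reads over the whole gene, introns included, numbered 1 to 7 per library.

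All 7 tested genes differed between the untreated lines at an adjusted p under 0.05, 6 lower and 1 higher in EpH4-AS, where 89.2% of all genes did. With PM2.5 the counts were the same, against 89% of all genes, so passing the test says little here and the size of the change is given instead. Areg, Ereg, Hbegf, Btc and Egfr were over 4-fold lower in untreated EpH4-AS, a size that 21.4% of all genes reached. With PM2.5 these 5 were again, against 20.9% of all genes, and so was Erbb3, though not without exposed EpH4-AS replicate 2. Over the alternatives Ereg and Hbegf stayed over 4-fold. The smallest log2 differences of the others, untreated and with PM2.5, were under 4-fold: -1.95 and -1.86 for Areg, -1.36 and -1.49 for Egfr, and -0.67 and -0.99 for Btc. These are values of limma-trend on log2(RPKM + 1), which understates changes of low genes. On leaving out a library the smallest Egfr differences were -4.69 untreated and -5.25 with PM2.5. The median log2 fold change of the 7 was -3.19 untreated and -2.91 with PM2.5, beside -0.05 and -0.04 over all genes, with the limit on Btc and Erbb3 given at the start. The untreated and exposed line comparisons share no library but use the same estimate of each gene's spread.

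**Figure D2:**
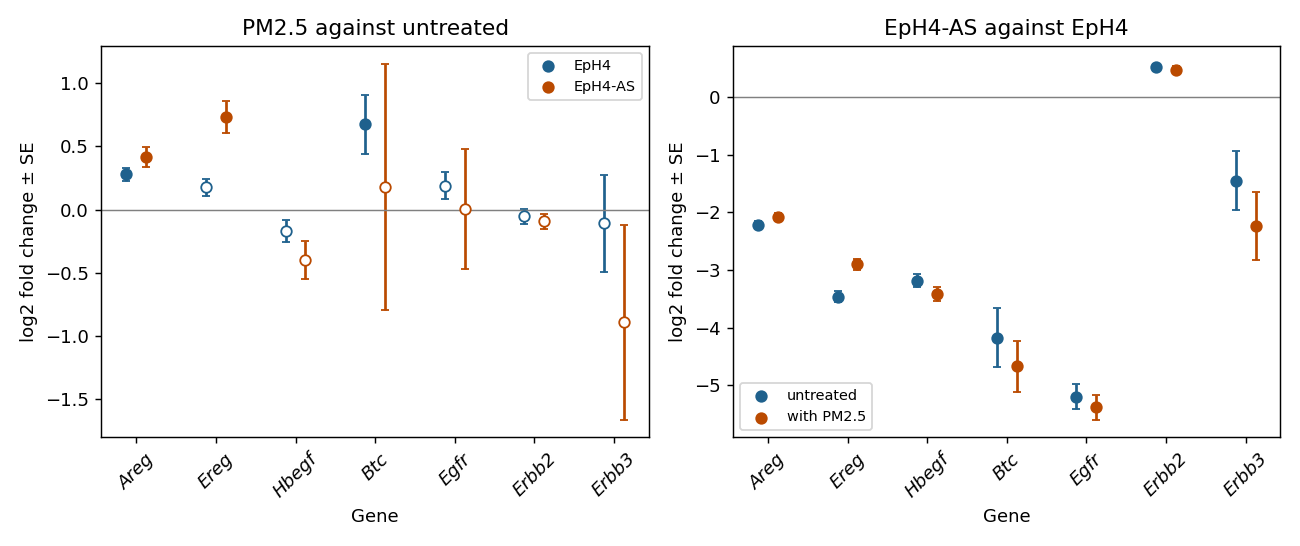
Log2 fold changes with their standard error for the 7 tested genes: PM2.5 against untreated in each line (left) and the 2 line comparisons, untreated and exposed, as EpH4-AS against EpH4 (right). Filled points have an adjusted p under 0.05. Areg is filled in both lines at left, and Erbb2 alone lies above 0 at right.

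Levels of different genes were compared per length, in the authors' RPKM (reads scaled to exon length and to the reads of the library). In untreated EpH4 the order was Areg at 57.7 ± 1.30, Hbegf at 47.8 ± 7.21, Ereg at 17.4 ± 0.899, Erbb2 at 7.36 ± 0.488, Egfr at 1.71 ± 0.0866, Btc at 0.667 ± 0.193 and Erbb3 at 0.140 ± 0.0377 RPKM (SD, n = 2). Areg and Hbegf were neighbours whose libraries did not overlap, at 56.8 and 58.6 against 42.7 and 52.9 RPKM, but the gap was of the order of the Hbegf spread. In untreated EpH4-AS Areg at 14.2 ± 0.456 came first, followed by Erbb2 at 12.0 ± 0.172, Hbegf at 6.02 ± 0.790 and Ereg at 1.81 ± 0.0608 RPKM. Egfr, at 0.0535 ± 0.0323 RPKM, Erbb3 at 0.0589 ± 0.0301 and Btc at 0.0407 ± 0.00181 did not differ beyond their spread there. Erbb2 thus stood above Hbegf and Ereg in EpH4-AS and below them in EpH4.

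EGF family ligands outside the 10 symbols were read from a list of 5 (Egf, Epgn, Nrg2, Nrg3, Nrg4), of which 4 were tested. Nrg2 and Nrg3, neuregulin genes whose products bind ERBB3 or ERBB4, were detected in EpH4-AS and had 0 counts in all 4 EpH4 libraries, so that they were tested only through EpH4-AS. Nrg2 had 257 and 206 counts in untreated EpH4-AS and 403 and 366 with PM2.5, or 15.5, 13.0, 23.5 and 19.9 CPM. Against 3 counts over the EpH4 group it was at least 251-fold higher in EpH4-AS untreated and at least 365-fold higher with PM2.5. The EpH4 libraries held 16 to 22 reads each in the Nrg2 gene, all outside exons. PM2.5 raised Nrg2 in EpH4-AS by 0.60 ± 0.13 on the log2 scale (1.52-fold, edgeR adjusted p = 0.0122). The call was lost without either untreated EpH4-AS library or replicate 1 of exposed EpH4-AS, at adjusted p up to 0.145. Nrg3 had 106 and 86 counts in untreated EpH4-AS and 97 and 95 with PM2.5, at least 104-fold and at least 91.0-fold above the same floor. Egf, the founding ligand, went the other way. It passed the filter only through EpH4, so a high level there was a condition of its being tested. Egf had 64, 70, 55 and 63 counts in the EpH4 libraries and 6, 4, 6 and 2 in the EpH4-AS libraries. Its ratio of EpH4 to EpH4-AS was 8.25 (95% exact counting interval 4.35 to 17.6) untreated and 10.4 (5.09 to 24.6) with PM2.5. Nrg4 stood between 0.792 and 1.42 CPM in the group means, and Epgn had 0 to 2 counts per library and was not tested. In EpH4 only Egf and Nrg4 had counts to test for PM2.5, and neither passed by edgeR, DESeq2 or limma-trend or had an unadjusted p under 0.05.

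Summed over 10 ligand genes, ligand RNA in EpH4 was 124 ± 9.19 RPKM untreated and 134 ± 2.29 RPKM exposed. In EpH4-AS it was 27.9 ± 0.213 RPKM untreated and 33.6 ± 1.54 RPKM exposed (SD, n = 2). These sums are described and were not tested. Areg made up 46.6, 52.3, 50.8 and 55.2% of the sum in the same order. The share of Hbegf was 38.4 and 31.8% in EpH4 and 21.6 and 13.3% in EpH4-AS. The share of Ereg was 14.1, 14.7, 6.50 and 8.79%. Nrg2 took 14.6% untreated and 18.0% with PM2.5 in EpH4-AS, and Nrg3 took 4.97 and 3.70%. The 4 receptor genes summed to 9.20 ± 0.612 and 9.19 ± 0.0306 RPKM in EpH4 and to 12.1 ± 0.106 and 11.1 ± 0.0984 RPKM in EpH4-AS. Relative to TMM-normalised CPM, RPKM stood higher in EpH4-AS. The Erbb2 means of untreated EpH4 and EpH4-AS were 44.6 and 63.6 CPM but 7.36 and 12.0 RPKM. The ligand and receptor sums carry this offset between the lines, which was not corrected. Erbb2 was 79.9 and 77.3% of the receptor sum in EpH4, with Egfr at 18.5 and 21.3%, and 99.0 and 99.2% in EpH4-AS, with Egfr at 0.442 and 0.466%. A share of RNA is not a share of protein.

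**Figure D3:**
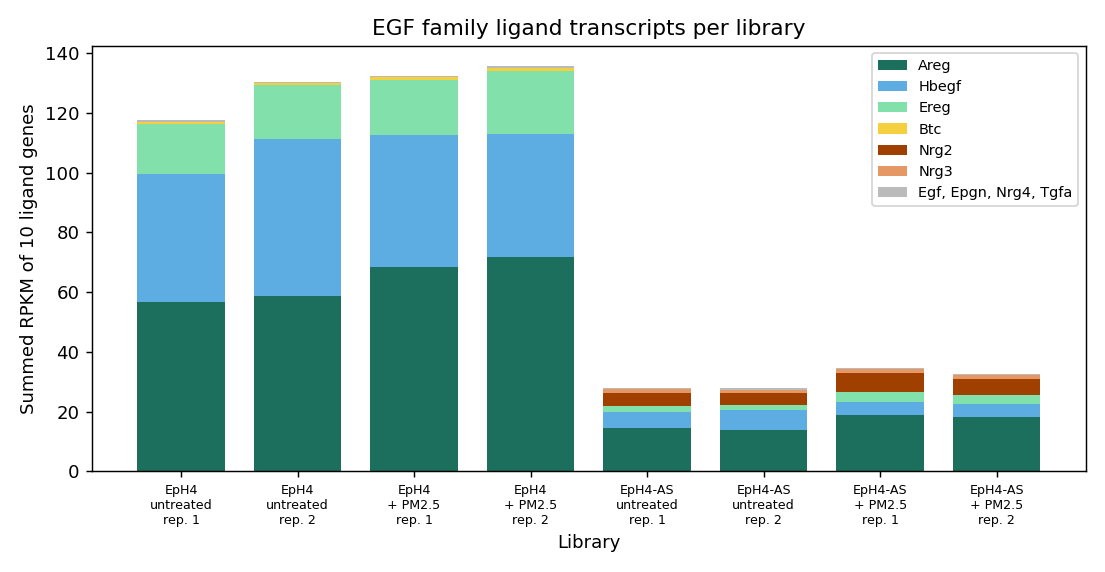
RPKM summed over 10 EGF family ligand genes in each library, stacked by gene. The EpH4 sums average 124 and 134 RPKM and the EpH4-AS sums 27.9 and 33.6 RPKM, with Nrg2 and Nrg3 present in the EpH4-AS bars.

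Ereg, Areg and Btc are neighbours on chromosome 5, in a row that also holds Epgn. The row spans 376 kb on GRCm39, with 39.4 kb between Epgn and Ereg, 46.0 kb between Ereg and Areg and 209 kb between Areg and Btc. Within 1 Mb of the start of Areg the table held 29 genes, of which 19 were tested. Without Ereg, Areg and Btc 16 were left, of which 10 passed the filter through each line on its own. Of these 10, 6 were called lower and 3 higher in untreated EpH4-AS. Of all 13716 genes tested, 6262 were called lower and 5976 higher, so the split says little about this region. Neighbours were named after their values were seen. On the Ereg side the chemokine genes Cxcl1 (-3.52 ± 0.10) and Cxcl5 (-3.98 ± 0.12 SE) were lower, Mthfd2l, a mitochondrial folate enzyme gene between them and Ereg, was higher (0.88 ± 0.12), and Cxcl3 was at 0.11 ± 0.63 (edgeR adjusted p = 0.871). Their PM2.5 effects stand beside 0.28 in EpH4 and 0.42 in EpH4-AS for Areg, and the differences were not tested. Mthfd2l was at 0.27 (adjusted p = 0.101) and 0.32 (0.0777). Cxcl1 rose by 0.73 in EpH4 (1.95e-05) and by 2.74 in EpH4-AS (9.02e-10), and Cxcl3, with 153 counts over the 8 libraries, by 1.94 (0.00449) and 3.30 (0.000237). Cxcl5 rose by 1.57 in EpH4 (5.14e-08) and was at -0.09 in EpH4-AS (0.836).

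**Figure D4:**
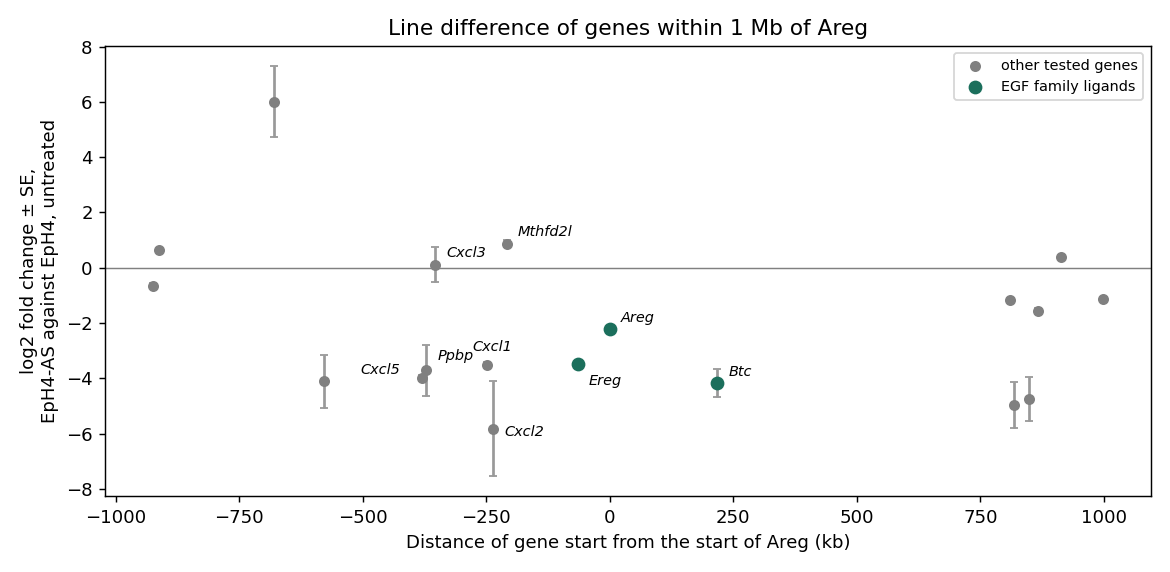
Log2 fold change with its standard error, EpH4-AS against EpH4 untreated, of the 19 tested genes within 1 Mb of Areg, by the distance of their starts in kb. Ereg, Areg and Btc lie between -2.22 and -4.17, and Mthfd2l, at 0.88, lies on the Ereg side.

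Genes of ligand shedding and trafficking moved in both directions. The list held 10 genes, all tested: ADAM proteases, and Rhbdf1, Rhbdf2 and Frmd8, whose products (iRhoms and their binding partner) act on ADAM17. In EpH4 PM2.5 raised 3 and lowered 2 of the 10, where 14.3% of all genes were called higher and 12.9% lower, with a list median of 0.15 beside 0.00 over all genes. Adam19 stood at 37.0 and 32.1 CPM untreated and at 55.0 and 64.6 CPM with PM2.5 (0.79 ± 0.08 SE, edgeR adjusted p = 1.96e-05). Adam12 rose from 4.18 and 3.06 to 6.93 and 11.2 CPM (1.31 ± 0.23, adjusted p = 0.000936). Frmd8 rose by 0.40 ± 0.08, and Adam17, the main sheddase of amphiregulin, epiregulin and HB-EGF, fell by 0.20 on the log2 scale (± 0.06, adjusted p = 0.0296). The Adam17 call was lost in 7 of 16 alternatives, among them leaving out untreated EpH4 replicate 1 (-0.10, adjusted p = 0.246), exposed EpH4 replicate 1 (0.149) or either untreated EpH4-AS library. The other, Adam15, was at -0.17 (adjusted p = 0.0301) and lost its call in 8 of 16, without either untreated EpH4 library, exposed EpH4 replicate 1 or either untreated EpH4-AS library among them. The list's count, 5, ran from 3 to 5. In EpH4-AS 2 rose (Adam9 by 0.25 ± 0.06 and Rhbdf2 by 0.24 ± 0.06) and 1 fell (Adam15, -0.17, adjusted p = 0.0377), where 6.39% of all genes were called higher and 4.75% lower, with a median of 0.16. Over the alternatives 0 to 4 of the 10 were called. The Adam15 call was lost in 5 of 15, the 4 that leave out an EpH4-AS library and the replicate block. The 2 rises lost the threshold without untreated EpH4-AS replicate 1 or either exposed EpH4-AS library, and that of Rhbdf2 also without untreated EpH4-AS replicate 2. Between the untreated lines 5 were higher and 3 lower in EpH4-AS, beside 89.2% of all genes called, with a median of 0.08 beside -0.05 over all genes. Adam12, 1 of the 3, passed the filter only through EpH4. Adam15 was 5.41-fold higher (69.8 against 378 CPM in the group means) and Adam8 was 26.2-fold lower (84.2 against 3.22 CPM).

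The list of ERBB receptor restraint and turnover held 10 genes, all tested, and was not sorted by the direction in which they act. In EpH4, 4 fell with PM2.5 (Errfi1, Lrig2, Lrig3 and Usp8) and 6 did not pass, where 12.9% of all genes were called lower. In EpH4-AS 2 fell (Lrig1 and Lrig3) and 8 did not pass, where 4.75% of all genes were called lower. Only Lrig3 was called in both lines, and none of the 10 was called higher in either, with list medians of -0.09 and -0.08 beside 0.00 and 0.00 over all genes. Over the alternatives the counts ran from 1 to 4 and from 1 to 3. Usp8 lost its call in 6 of 16, with -0.10 (adjusted p = 0.268) without untreated EpH4 replicate 2, and also without exposed EpH4 replicate 2 or either untreated EpH4-AS library. Lrig2 lost it in 3 of 16, by DESeq2, by limma-trend and without exposed EpH4 replicate 1. Errfi1, the gene of the EGFR kinase inhibitor MIG6, fell by 0.23 in EpH4 (± 0.06 SE, edgeR adjusted p = 0.00767), and the call was lost without replicate 1 of exposed EpH4 (0.0510). Lrig1, whose product promotes ERBB receptor degradation, stood at 101 and 99.6 CPM in untreated EpH4-AS and at 67.0 and 70.8 CPM with PM2.5 (-0.54 ± 0.08, adjusted p = 0.000573). In EpH4 it overlapped, at 198 and 169 CPM untreated and 166 and 183 CPM with PM2.5. Lrig3 fell by 0.33 in EpH4 and by 0.41 in EpH4-AS, and each call was lost in 3 alternatives. In EpH4 these were DESeq2 and leaving out untreated replicate 2 or exposed replicate 1. In EpH4-AS they were leaving out either exposed library or untreated replicate 1, where the value was -0.26 (adjusted p = 0.230). Between the untreated lines 6 were higher and 4 lower in EpH4-AS, again beside 89.2% of all genes called, with a median of 0.42. Stub1 and Usp8 were higher by 0.68 each, and Lrig1 and Rnf41 were at -0.87 and -0.79.

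Of 10 adaptor genes 8 were tested. In EpH4 0 of the 8 passed for PM2.5 by edgeR, DESeq2 or limma-trend, with 3 at an unadjusted p under 0.05 and a median of -0.04, and over all alternatives 0 to 2 passed. These stand beside 27.2% of all genes called. In EpH4-AS 2 rose and 1 fell, beside 11.1% of all genes called, with a median of 0.04. Shc1, an adaptor that binds the phosphorylated receptor, stood at 161 and 173 CPM untreated and at 210 and 231 CPM with PM2.5 (0.40 ± 0.06 SE, edgeR adjusted p = 0.000567). Gab1 rose by 0.41 ± 0.10 and Sos1, a RAS exchange factor, fell by 0.28 (± 0.06). Those calls were lost in 5 and 3 of 15 alternatives, both without either untreated EpH4-AS library or exposed EpH4-AS replicate 2. Between the untreated lines 3 were higher and 3 lower in EpH4-AS, beside 89.2% of all genes called. Plcg1, the gene of phospholipase C gamma 1, was 7.57-fold higher, at 616 and 621 CPM against a mean of 81.7 CPM. Shc2 was 27.5-fold lower in the fit, at group means of 0.559 against 15.4 CPM.

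The genes of a published MAPK activity score, which lie downstream of ERBB and other receptors, were mostly lower in EpH4-AS. Of 10, all tested, 8 were lower and 1 higher untreated, and the counts were the same with PM2.5, with a list median of -0.95 untreated, beside -0.05 over all genes, of which 45.7% were called lower. Among the 8 lower is Epha4, which passed the filter only through EpH4, with 2 or 3 counts in each EpH4-AS library. These counts held in all 15 alternatives of each comparison. Etv5 was 2.90-fold lower, Epha2 2.51-fold and Dusp4 2.27-fold, and Etv4, an ETS factor gene, was 4.16-fold higher (2.06 ± 0.07 SE). In EpH4 PM2.5 raised 3 and lowered 2, beside the 14.3 and 12.9% of all genes, with a median of -0.01. Phlda1 stood at 136 and 108 CPM untreated and at 181 and 231 CPM with PM2.5 (0.75 ± 0.11, edgeR adjusted p = 0.000227). Ccnd1, the gene of cyclin D1, rose from 341 and 301 to 409 and 449 CPM (0.42 ± 0.06, adjusted p = 0.000393). Etv4 rose by 0.39 ± 0.07, and Etv5 fell by 0.38 (± 0.06). In EpH4-AS 0 of 10 passed for PM2.5 by edgeR or DESeq2 and 1 by limma-trend, with 2 at an unadjusted p under 0.05 and a median of -0.08, and over all alternatives 0 to 3 passed.

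**Figure D5:**
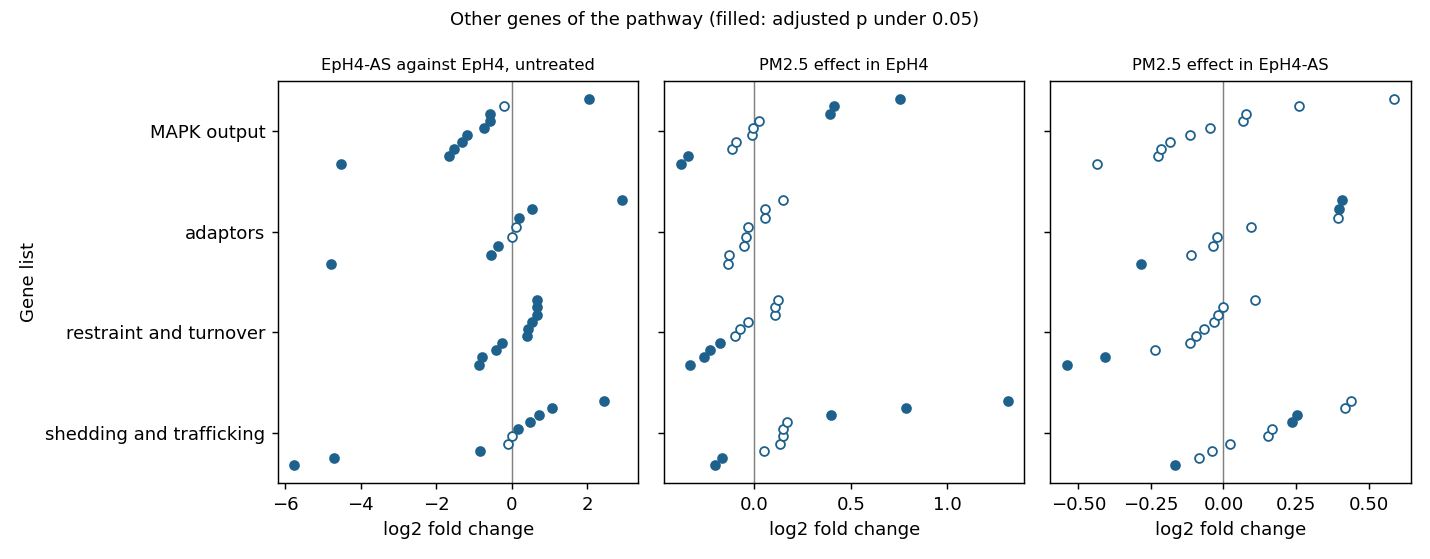
Log2 fold changes of the tested genes of 4 pathway lists, between the untreated lines (left), for PM2.5 in EpH4 (middle) and for PM2.5 in EpH4-AS (right), filled where the adjusted p was under 0.05. The MAPK output genes lie mostly left of 0 at left. The filled genes of the restraint and turnover list lie left of 0 in both PM2.5 panels. The horizontal scales differ.

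The genes whose pattern over the 8 libraries was most like that of Areg, the ligand with the highest mean RPKM, were Mllt11, Ifngr2, Slc20a2, Ndufc2 and Klhl26. Likeness was the Euclidean distance between centred log2 CPM values over 8 libraries among 10211 genes, and it was 0.134 for Mllt11 and 0.261 to 0.288 for the other 4. Mllt11 stood at 63.4, 81.5, 13.9 and 19.1 CPM in the group means of untreated EpH4, exposed EpH4, untreated EpH4-AS and exposed EpH4-AS. For Erbb2, the receptor with the highest mean RPKM, they were Dnajb11, Slc16a1, Tsr1, Gde1 and Mrpl45, at distances of 0.104 to 0.119. Dnajb11 stood at 122, 118, 171 and 159 CPM in the same order.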

How the data were processed

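Untreated and PM2.5-exposed spheroids of both lines gave 8 libraries of polyadenylated RNA, made with a stranded kit per the labels' protocols, with groups read from the labels. The authors deposited raw counts of reads per gene, and the 2 deposited count tables held equal values (0 cells differed). The authors also deposited RPKM per library, scaled to exon length and library reads, and reads over the whole gene. The genome build was GRCm39, per the submitters' processing notes. Neither aligner and counter nor annotation release and strand setting is given in the sources used here.

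Counts were fitted in R 4.3.3 with edgeR 4.0.16 (filterByExpr, TMM, quasi-likelihood F test on all 4 groups at once, leaving 4 residual degrees of freedom). Of 25413 genes, 19932 had a count and 13716 were tested, with 99.964% of counts. Dispersion was 0.00218 in common, or 4.67% as a coefficient of variation. P-values were two-sided and adjusted by Benjamini-Hochberg over all genes tested in each of 5 contrasts, with a threshold of 0.05. Standard errors are absolute log2 fold changes divided by the root of F. Library pairs of a group differed beyond sampling noise (chi-square per degree of freedom 1.47 to 9.29). The fit was also run on counts simulated with the common dispersion for every gene and group. The library pairs differed in spread between groups, so no conclusion is drawn from the simulation.

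Alternatives were DESeq2 size factors, unscaled library totals, DESeq2 1.42.0 with its Wald test, a fit with no filter, a replicate block, a fit to the groups compared alone, limma 3.58.1 limma-trend on log2(RPKM + 1), which understates changes of low genes, and leaving out each library, where a lone library is assumed to vary like the other groups. A crossed replicate block was chosen after seeing the data. The members and lists were chosen with earlier results of these data known. All 10 symbols were to be named. Of each list up to 4 genes with the smallest adjusted p in a contrast were eligible, and for the ligand and the receptor of highest mean RPKM the 5 nearest genes at 5 CPM or more, predicted gene models passed over. Low counts were compared by exact conditional intervals.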

Additional observations from a re-analysis of the deposited data

Results flagged for a closer look

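The PM2.5 effect differed between the lines, by the edgeR test of the interaction, for 9 of the 49 tested family and listed genes, beside 14.1% of all genes. The values are the PM2.5 effect in EpH4-AS less that in EpH4 on the log2 scale, with the adjusted p in parentheses. Ereg was at 0.56 ± 0.14 SE (0.0186), with all 4 EpH4-AS libraries still below every EpH4 library. The Ereg call was lost in 4 of 14 alternatives, named above. Of the shedding genes Adam19 was at -0.62 ± 0.12 (0.00293): it was at 0.79 in EpH4 and 0.17 in EpH4-AS. Lrig1, of the restraint and turnover genes, was at -0.47 ± 0.10 (0.00925). Of the adaptors Shc1 was at 0.43 ± 0.08 (0.00312) and Plcg1 at -0.26 ± 0.07 (0.0316). Of the MAPK output genes Ccnd1 was at -0.53 ± 0.09 (0.00211), Phlda1 at -0.98 ± 0.18 (0.00244), Etv5 at 0.45 ± 0.10 (0.00938) and Etv4 at -0.31 ± 0.09 (0.0366). The calls of Plcg1 and Etv4 were lost in 7 and 8 of 14 alternatives, among them leaving out any of the 4 EpH4-AS libraries. Leaving out exposed EpH4 replicate 2 gave -0.21 for Etv4 (adjusted p = 0.151). The Lrig1 call was lost without either untreated EpH4-AS library or exposed EpH4-AS replicate 1, and the Etv5 call without untreated EpH4-AS replicate 1.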

How the results depend on the processing

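No called change of the 7 tested genes or of the listed genes changed sign in any alternative. Over the gene-level alternatives of the 7, 478 values kept their direction and side of the threshold, 16 fell short of it, 10 newly passed and 15, all of uncalled effects, changed sign. For PM2.5 in EpH4 the number of called genes, 2, was 1 by DESeq2, 1 in the fit to the groups compared alone, 3 with no filter, and 1 to 3 on leaving out a library (3 without untreated EpH4 replicate 1, with Hbegf). For PM2.5 in EpH4-AS, also 2, it was 3, with Hbegf, by DESeq2, with no filter and in the fit to the groups compared alone, and 1 to 3 on leaving out a library (1 without untreated EpH4-AS replicate 2). For the interaction, 1, it was 0 by limma-trend on RPKM and 0 to 2 on leaving out a library (0 without untreated EpH4-AS replicate 1 or 2 or replicate 1 of exposed EpH4-AS, and 2, with Hbegf, without untreated EpH4 replicate 2). Between the lines, 7 were called untreated in the main analysis and 6 to 8 in the alternatives, and 7 in all alternatives with PM2.5. The causes were not tested.

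Same-numbered libraries shared little deviation: correlations of their deviations from group means lay between -0.101 and 0.0646 over 6 pairs of groups. With 2 libraries per group this cannot show whether same-numbered libraries were cultured or prepared together. With a replicate block 1 of the 7 was called for PM2.5 in EpH4 (Btc at adjusted p = 0.0616). With the numbers of the EpH4 libraries crossed, chosen after seeing the data, 2 of the 7 and 4118 of all genes were called, against 3726 without a block.

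Uncalled effects that changed sign were the PM2.5 effect of Egfr in EpH4-AS (0.0037), at -0.0068 with DESeq2 size factors, -0.023 with library totals, -0.0084 by DESeq2 and -0.0021 by limma-trend, and from -0.50 to 0.78 on leaving out a library. Leaving out a library also moved Hbegf for PM2.5 in EpH4 from -0.33 to 0.011, Erbb3 there from -0.34 to 0.18 and Btc for PM2.5 in EpH4-AS from -1.09 to 0.90. For the interaction the ranges were -1.76 to 0.23 for Btc, -0.68 to 0.60 for Egfr, -0.090 to 0.0091 for Erbb2 and -2.52 to 0.046 for Erbb3. Over all genes the alternatives called 2145 to 4118 for PM2.5 in EpH4 (3726), 363 to 2995 in EpH4-AS (1529), 11674 to 13021 between untreated lines (12238), 11602 to 13113 with PM2.5 (12211) and 875 to 2621 for the interaction (1932). DESeq2 size factors and library totals shifted the median of all genes by at most 0.052 on the log2 scale. The shift with limma-trend on RPKM, which is offset between the lines, was not taken. With 2 libraries per group, and 22 counts or fewer per group for Egfr, Btc, Erbb3 and Erbb4 in EpH4-AS, small PM2.5 changes of these genes there were not detectable.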
